A study of Mus musculus with 14 samples.

Results

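Skeletal muscle contractile and calcium genes were followed array by array in fat of running and sedentary mice. The set held 36 genes, which encode the thin and thick filaments of the muscle sarcomere, its Z-disc, the calcium release and uptake machinery and the enzymes that feed it. Its members were the probe sets whose platform symbol is on a fixed list of names, 1 per gene by the highest mean signal over the 14 arrays. All 36 genes were on the array, among 18193 genes with 1 symbol. Of these, 30 were among the 12945 genes that passed a filter on low signal and were tested.

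Messenger RNA was measured in white fat from under the skin (subcutaneous white adipose tissue). The mice were males of C57BL/6, a common inbred strain, and 12 weeks old. In the exercised group, 7 samples came from mice kept with a running wheel for 11 days, and in the sedentary group, 7 samples came from sedentary control mice over the same time. The labels name no genotype, drug or diet for either group. They do not say whether each array came from its own mouse, so a p-value is set against sample-to-sample spread that could be technical. They also do not say how the depot was cut from the muscle and skin around it.

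Skeletal muscle contracts when myosin of the thick filament pulls on actin of the thin filament, after calcium released from the sarcoplasmic reticulum has bound troponin C. Fast and slow fibres build this machine from paralogous genes, so that a fast troponin I and a slow troponin I, or a fast and a slow myosin heavy chain, mark the fibre kind. Subcutaneous fat lies against sheets of skeletal muscle, and adipocytes are not known to build sarcomeres.

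Promoter sequences are shown for 5 members on which the results turn. Mylpf, Acta1 and Myh4 followed Ckm across the arrays with r of at least 0.988, and r was -0.005 for the slow troponin I gene Tnni1. RefSeq windows of the 250 bases before the start site, on GRCm38.p6, matched 28 of the 36 member genes, with 35 windows. Capitals mark CAGCTG, a core often bound by myogenic factors such as MyoD, TATAAA, and the CArG box, the element bound by serum response factor. Matches were sought on both strands.
Ckm, chr7:19410844-19411093, forward strand: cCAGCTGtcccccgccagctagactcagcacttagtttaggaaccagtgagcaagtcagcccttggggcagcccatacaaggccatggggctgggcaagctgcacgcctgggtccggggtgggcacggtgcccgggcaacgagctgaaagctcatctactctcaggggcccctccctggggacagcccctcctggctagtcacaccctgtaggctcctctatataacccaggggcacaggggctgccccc
Mylpf, chr7:127211358-127211607, forward strand: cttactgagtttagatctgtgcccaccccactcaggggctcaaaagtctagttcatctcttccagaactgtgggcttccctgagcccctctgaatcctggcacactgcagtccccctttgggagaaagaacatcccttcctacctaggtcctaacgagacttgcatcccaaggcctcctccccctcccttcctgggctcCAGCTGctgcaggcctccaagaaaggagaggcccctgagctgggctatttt
Acta1, chr8:123894776-123895025, reverse strand: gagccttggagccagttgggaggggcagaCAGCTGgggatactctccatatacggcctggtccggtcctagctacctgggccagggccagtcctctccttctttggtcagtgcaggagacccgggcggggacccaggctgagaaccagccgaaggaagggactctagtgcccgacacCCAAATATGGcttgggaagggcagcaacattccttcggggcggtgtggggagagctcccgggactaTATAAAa
Myh4, chr11:67237562-67237811, forward strand: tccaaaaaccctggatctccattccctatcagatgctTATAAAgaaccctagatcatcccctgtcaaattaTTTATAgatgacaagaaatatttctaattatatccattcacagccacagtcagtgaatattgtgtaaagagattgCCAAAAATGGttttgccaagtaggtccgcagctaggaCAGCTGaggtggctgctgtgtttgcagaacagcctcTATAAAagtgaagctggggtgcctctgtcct
Tnni1, chr1:135799171-135799420, forward strand: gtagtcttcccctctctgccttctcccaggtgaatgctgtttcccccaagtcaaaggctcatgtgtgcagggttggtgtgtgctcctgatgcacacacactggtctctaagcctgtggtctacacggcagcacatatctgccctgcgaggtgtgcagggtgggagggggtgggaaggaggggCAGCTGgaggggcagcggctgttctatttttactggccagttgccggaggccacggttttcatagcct
The Ckm window holds CAGCTG from 249 bases before the start site and the Mylpf window from 51 bases before it. In Acta1 the CAGCTG begins 221 bases, the CArG box 73 bases and TATAAA 7 bases before the start. Myh4 holds CAGCTG at 67 bases, a CArG box at 104 bases and TATAAA at 213, 179 and 31 bases before the start. Tnni1, whose signal was under the filter level on every array, holds CAGCTG 68 bases before its start too. Among the member windows CAGCTG occurred in 15 of 35 (42.9%), against 13% of all 32851 windows, and the CArG box in 5 of 35 (14.3%), against 1.5%. Overlapping windows of 1 gene can hold the same site, as in Tnni1, Mb and Ldb3. By gene, CAGCTG occurred in 13 of 28 and the CArG box in 4 of 28. TATAAA occurred in 17.1% of member windows and 12.4% of all windows, and CTANNNNTAG in 8.6% and 3.2%. CTANNNNTAG allows any base in its centre, where the MEF2 site has A or T, so these are not counts of MEF2 sites. Its matches in Ldb3 and Smpx hold a C or G there. No marked match overlapped another motif in the printed windows, and a match describes letters only.

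All arrays had a trimmed mean signal of 1500, and their medians lay between 531.3 and 617.4. The defining fat transcript Adipoq, which encodes adiponectin, had a signal of 59750 ± 5241 in the exercised and 57630 ± 7115 in the sedentary samples (SD, n = 7 each). The ratio of the 3′ to the 5′ control probe set of Gapdh, a measure of RNA integrity, was 0.76 ± 0.0289 in exercised and 0.732 ± 0.0346 in sedentary samples. It was 0.764, 0.787, 0.788 and 0.782 in exercised 2, 3, 6 and 7, the exercised samples highest in muscle genes. In exercised 1, 4 and 5 it was 0.745, 0.71 and 0.743. Sedentary 3, high in muscle genes, had 0.694, and sedentary 7, low in them, had 0.796. The same ratio for beta-actin was lowest in exercised 6 (1.192), exercised 3 (1.211) and sedentary 5 (1.218). Signals of different probe sets cannot be set against each other, so every gene is compared with itself across arrays.

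The muscle genes varied widely between arrays of the same group. Over the tested members the median spread within groups, the pooled SD on the log2 scale, was 2.32, against 0.241 over all genes tested. It was over 1 for 29 of 30 tested members and for 2.01% of all genes. The first principal component of the tested members held 93.8% of their variance and the next held 2.2%.

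**Figure D1:**
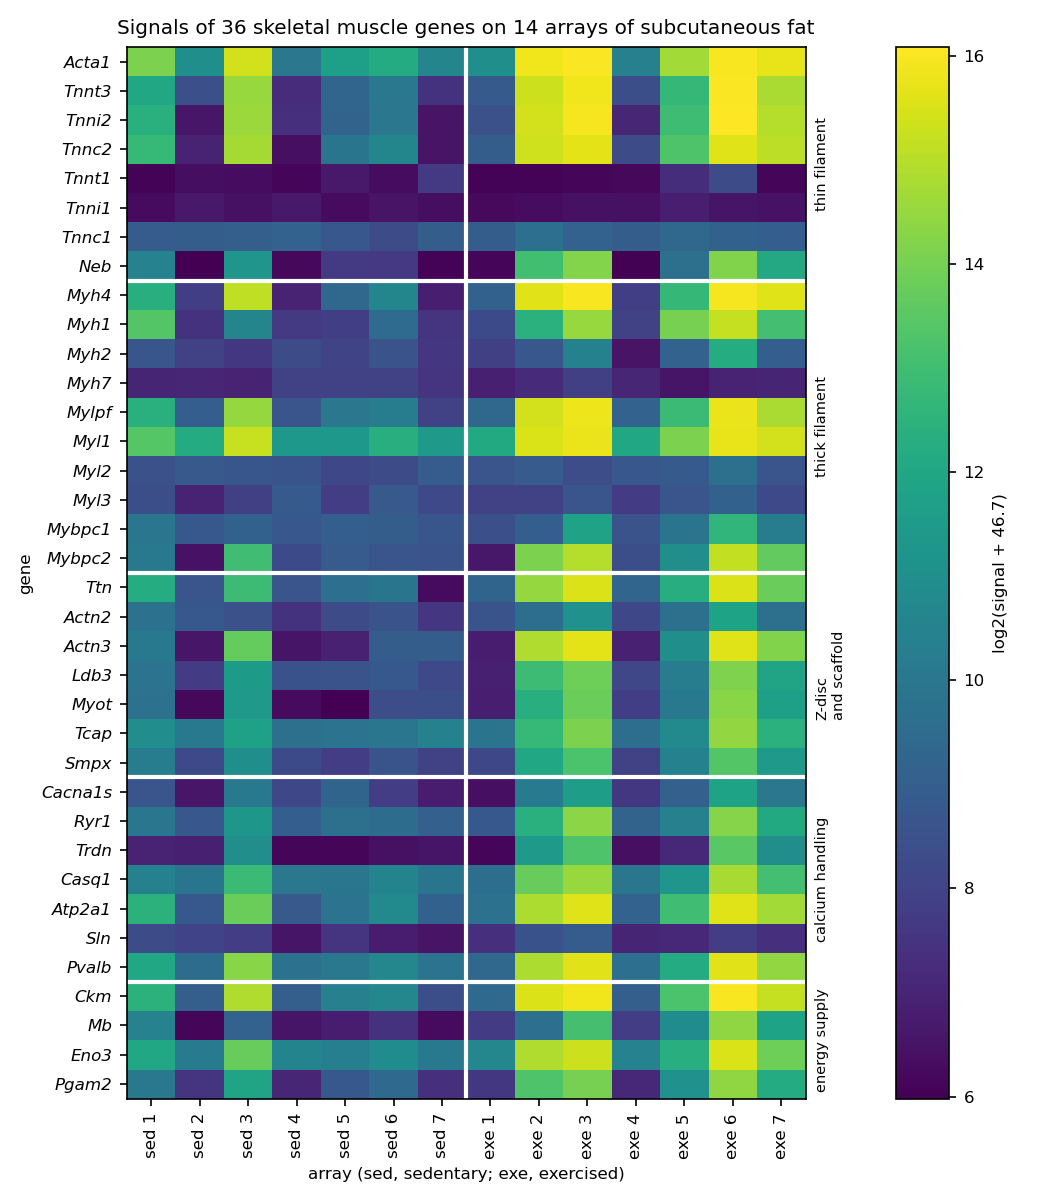
Log2 of signal plus 46.7 for the 36 members, not centred by gene, with genes in rows by role and arrays in columns by group. Colours are to be compared along a row, since signals of different probe sets cannot be set against each other. Exercised samples 2, 3, 6 and 7 and sedentary sample 3 are high for most members. The slow genes Tnnt1, Tnni1, Myh7, Myl2 and Myl3, with mean signals under the filter, do not show this set of high arrays. Exercised 6 is still the highest array for Tnnt1, Myl2 and Myl3.

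The same arrays were high for almost every tested gene. For 29 members the highest signals were those of exercised samples 3 and 6, which held for 3.11% of all genes tested. For 23 members the 4 highest arrays were exercised 2, 3, 6 and 7 (1.09% of all genes). For 25 members the 7 highest were these, exercised 5 and sedentary 1 and 3 (0.525% of all genes). Exercised 1 and 4 and sedentary 2, 4 and 7 were at the low end.

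The share of each array's summed signal that fell on the 36 members gives this order in 1 number per sample. In sedentary samples 1 to 7 it was 0.115, 0.0178, 0.386, 0.0152, 0.0232, 0.0347 and 0.0154%, and in exercised samples 1 to 7 it was 0.0193, 0.654, 0.996, 0.0174, 0.161, 1.09 and 0.496%. The group means were 0.49 ± 0.446% exercised and 0.0868 ± 0.137% sedentary (SD, n = 7 each). The groups overlapped, since exercised 1 and 4 lay among the lowest sedentary samples and sedentary 3 exceeded exercised 1, 4 and 5. By count of members over a signal of 1000, exercised 3 and 6 had 29 each, sedentary 3 and exercised 2 had 25 each, and sedentary 4 had 2. In bulk tissue, fewer muscle cells and less of these RNAs per cell cannot be told apart.

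In the comparison of exercised with sedentary tissue no member passed the test. The 30 tested members had a median difference of 2.61 on the log2 scale, between 0.31 for Tnnc1 and 3.48 for Tnnc2, where the median over all genes was -0.03. All 30 differences were positive (45.0% of all genes), and 29 were over 1 (1.24% of all genes). With limma and Benjamini-Hochberg adjustment over all genes, 0 of 30 members were called, against 4.0% of all genes called higher and 5.53% called in either direction, and adjusted p ran from 0.078 for Mb to 0.372 for Myh2. At an unadjusted p under 0.05, 21 of 30 were higher and none lower, against 11.3% of all genes higher. The exact permutation test also called 0 members after adjustment and had 8 of 30 under 0.05 before it (all genes 5.96% called in either direction, and 11.2% higher before adjustment).

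No tested member had groups that did not overlap, which 1.95% of all genes showed as higher. Of the tested members, 5, namely Myh2, Actn2, Cacna1s, Trdn and Mb, had a sedentary mean below the filter and passed through the exercised arrays. The counts of tested members still include them, although their positive sign carries no weight. Actn2, Trdn and Mb are among the 21 tested members that were higher at an unadjusted limma p under 0.05. Without the filter, 35 of 36 members had a positive difference, with a median of 2.15. Myh7 was the exception at -0.41 (SE 0.23). None of the 36 was called there, where 2.42% of 18193 genes were called higher, and 21 of 36 were higher at an unadjusted p under 0.05 (9.01% of all genes). The unadjusted count fell to 2 with the Gapdh 3′/5′ ratio as a covariate, and the median difference was then 1.96, while the part of RNA integrity in the result was not tested. It was also 2 with array weights, and between 4 and 28 when each array was left out in turn.

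**Figure D2:**
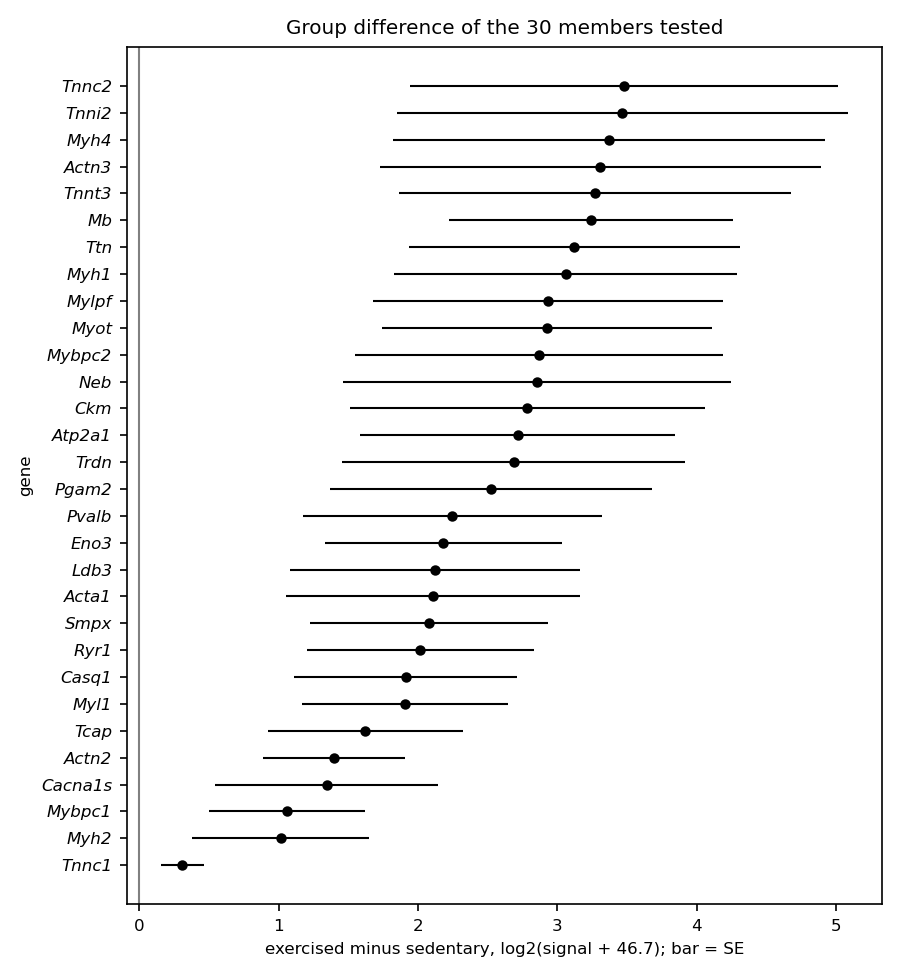
Exercised minus sedentary difference in log2 signal for the 30 tested members, with points as limma estimates and bars as standard errors over 7 against 7 arrays. All points lie above 0, from 0.31 for Tnnc1 to 3.48 for Tnnc2, with long bars, and none had an adjusted p under 0.05.

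Ckm, the muscle creatine kinase that regenerates ATP at the myofibril, served as the single muscle marker. Its signal in sedentary samples 1 to 7 was 5689.8, 473, 29757, 478.5, 1279.9, 1574 and 295.8. In exercised samples 1 to 7 it was 649.8, 48271, 60398, 479.8, 9615, 64891 and 37689. Sedentary 3 thus lay above exercised 1, 4 and 5, while exercised 4 lay beside sedentary 2 and 4. The difference was 2.79 (SE 1.28, limma adjusted p = 0.216), with an exact permutation p of 0.0775, and was 1.80 as the mean of its probe sets.

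Acta1, the skeletal actin that forms the backbone of the thin filament, followed the same arrays. Its signal was 17630.1, 2015, 42832, 961, 3291, 4646 and 1467 in sedentary samples 1 to 7 and 2049, 59218, 66197, 1281, 25989, 64379.9 and 55770.2 in exercised samples 1 to 7. Sedentary 4 and exercised 4 had the lowest signals and exercised 3 the highest, and the groups overlapped. The difference was 2.11 (SE 1.06, limma adjusted p = 0.258).

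The troponin complex places calcium control on the thin filament, and its fast subunits spread widely. Tnni2, the inhibitory subunit of fast fibres, read 5404, 49.9, 24198, 120.1, 540.6, 968.3 and 44.4 in sedentary samples 1 to 7 and 316.8, 43156, 63489, 88.8, 7804, 69518 and 31658 in exercised samples 1 to 7. Between its lowest and highest array lay a 764-fold range on the scale of signal plus 46.7. Sedentary 7 and 2 and exercised 4 were lowest, and the difference between the groups was 3.47 (SE 1.62, limma adjusted p = 0.225). Tnnc2, the calcium-binding subunit of fast fibres, had the largest difference of the members at 3.48 (SE 1.53, limma adjusted p = 0.199). Its signals were 6903, 76.2, 27047, 38.2, 914.8, 1539 and 45.3 in sedentary and 452.6, 41690.2, 51564, 278.5, 10024, 49041 and 34228 in exercised samples, in order. Here exercised 3 was the highest and sedentary 4 the lowest, and exercised 1 and 4 fell inside the sedentary range. Tnnt3, the fast subunit that ties the complex to tropomyosin, had a difference of 3.27 (SE 1.41, limma adjusted p = 0.189), and Neb, the giant protein that runs along the thin filament, had a difference of 2.85 (SE 1.39, limma adjusted p = 0.247).

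The slow troponins did not share these ranges. Tnni1, the slow inhibitory subunit, read 30.2, 56.4, 39.4, 56.6, 30.9, 45.7 and 35.1 in sedentary samples 1 to 7 and 29.4, 33.2, 38.9, 38.8, 67.1, 47.6 and 42.8 in exercised samples 1 to 7. The highest value, in exercised 5, was 1.5-fold the lowest on the scale of signal plus 46.7, and the group means were 42.5 ± 12.4 exercised and 42.0 ± 11.2 sedentary (SD, n = 7 each). Its difference without the filter was 0.01 (SE 0.12). Both group means lay below the added 46.7, so this flat signal cannot show whether Tnni1 follows the fast genes. Tnnt1, the slow tropomyosin-binding subunit, was also under the filter and ranged 20.3 to 273.5 with a median of 24.4 in exercised samples and 21.6 to 159.2 with a median of 32.8 in sedentary ones. The highest Tnnt1 signal was that of exercised 6. Tnnc1, the troponin C that slow fibres share with the heart, passed the filter and had the smallest difference of all tested members at 0.31 (SE 0.15, limma adjusted p = 0.25). Its signals were 434.1, 451.4, 487.1, 524.9, 381.7, 269.5 and 447.1 in sedentary and 457.6, 765.7, 524.9, 457.4, 613.5, 504.9 and 463 in exercised samples, in order. Exercised 2 was highest and exercised 3 and 6, the highest arrays of the fast genes, lay near sedentary 4, so the order of arrays was another one.

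**Figure D3:**
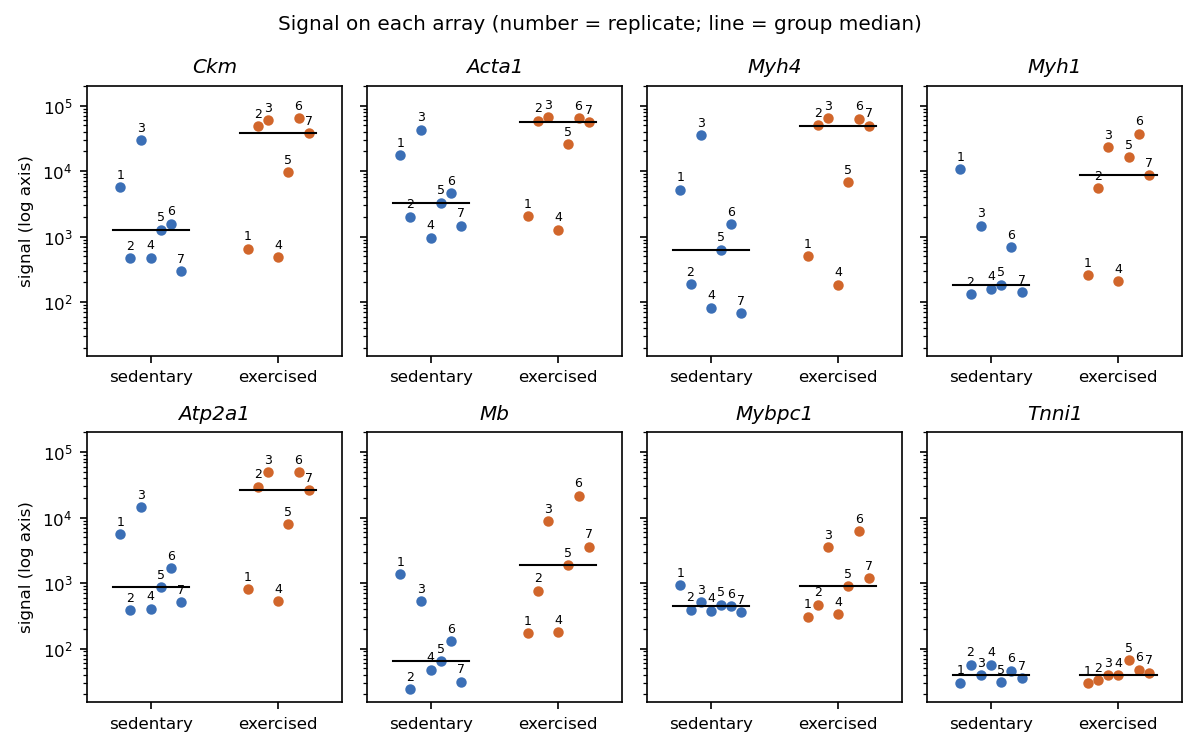
Signal per array on a log axis for Ckm, Acta1, Myh4, Myh1, Atp2a1, Mb, Mybpc1 and Tnni1, with points as single samples and lines as group medians. The exercised points of the first 6 genes split into high samples and the low samples 1 and 4, which lie within the sedentary range, while Tnni1 stays between 29.4 and 67.1 on all 14 arrays.

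Myosin heavy chains are the motors, and each fibre kind uses its own. Myh4, the heavy chain of the fastest (2B) fibres, had signals of 5236, 187.5, 35144, 81.6, 629.8, 1540.5 and 67.2 in sedentary samples 1 to 7. In exercised samples 1 to 7 they were 502.5, 50129, 65112, 183.3, 6748, 63033 and 49261. Exercised 2, 3, 6 and 7 were above all sedentary samples, and exercised 1 and 4 were below sedentary 1, 3, 5 and 6. The difference was 3.37 (SE 1.55, limma adjusted p = 0.218). Myh1, the heavy chain of 2X fibres, ranged 207.2 to 37252 with a median of 8624 in exercised and 131.4 to 10649 with a median of 185.1 in sedentary samples, and its difference was 3.06 (SE 1.23, limma adjusted p = 0.163). Its probe set is of a kind that can also bind related sequences, but a second Myh1 probe set followed it with r = 0.997 across the arrays and a difference of 2.96.

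Myh2, the heavy chain of fast oxidative (2A) fibres, stood out in few arrays. Its signals were 369.1, 197.3, 150.9, 276.8, 221.9, 331.5 and 145.6 in sedentary and 192, 371, 1309.9, 45.2, 525.2, 4819 and 459.6 in exercised samples, in order. Exercised 6 and 3 were high, exercised 2, 5 and 7 lay above the highest sedentary sample by far less, and exercised 4 was the lowest of all 14. The difference was 1.02 (SE 0.64, limma adjusted p = 0.372), the largest adjusted p of the tested members. Myh7, the slow heavy chain that the heart also uses, had 84.8, 88.4, 81, 202.3, 208.1, 204.8 and 135 in sedentary and 71.2, 103.7, 191.5, 86.8, 47.1, 81.5 and 85 in exercised samples. All its values were under the filter, and the 3 highest were those of sedentary 5, 6 and 4. Of the exercised samples high for Myh4, 2, 6 and 7 lay between 81.5 and 103.7. Exercised 3, the highest of all for Myh4, had the highest exercised signal of Myh7, at 191.5.

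Light chains split in the same way, while the slow binding protein Mybpc1 partly followed the fast genes. Mylpf, the regulatory light chain of fast fibres, had a difference of 2.93 (SE 1.25, limma adjusted p = 0.186), and Myl1, the fast essential light chain, 1.91 (SE 0.74, limma adjusted p = 0.149). The slow light chains Myl2 and Myl3, both under the filter, had differences of 0.27 and 0.18 without it. Myl2 ranged 286.4 to 795.8 with a median of 377 in exercised and 241.2 to 432.9 with a median of 338 in sedentary samples. Exercised 6 was the highest array for Myl2 and, at 507.5, for Myl3. Mybpc2, the fast myosin-binding protein C, had a difference of 2.87 (SE 1.32, limma adjusted p = 0.218). Mybpc1, its slow relative, had high signals on some arrays and ranged 305.2 to 6253 with a median of 888.8 in exercised and 360.3 to 932.2 with a median of 448.8 in sedentary samples. Exercised 6 and 3 were its highest arrays, exercised 2 was inside its sedentary range, and the difference was 1.06 (SE 0.56, limma adjusted p = 0.285).

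The Z-disc and the elastic scaffold anchor the filaments. Ttn, the titin spring that spans from Z-disc to M-line, ranged 556.9 to 48534 with a median of 13915 in exercised and 30.2 to 7742 with a median of 761.4 in sedentary samples, with a difference of 3.12 (SE 1.19, limma adjusted p = 0.143). Actn3, the alpha-actinin restricted to fast fibres, had a difference of 3.31 (SE 1.58, limma adjusted p = 0.237), and Actn2, the alpha-actinin of all fibres and the heart, 1.40 (SE 0.51, limma adjusted p = 0.126). Among the Z-disc partners, differences were 2.12 for Ldb3, 2.92 for Myot and 1.62 for the titin cap Tcap, and 2.08 for Smpx. Their adjusted p from limma with Benjamini-Hochberg adjustment lay between 0.166 for Myot and 0.249 for Ldb3.

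Calcium handling genes followed the contractile ones. Cacna1s, the voltage sensor of the surface membrane, had a difference of 1.34 (SE 0.80, limma adjusted p = 0.343), Ryr1, the release channel it opens, 2.02 (SE 0.81, limma adjusted p = 0.165), and Trdn, which ties release channel and calcium store together, 2.69 (SE 1.23, limma adjusted p = 0.215). Atp2a1, the SERCA1 pump that returns calcium to the store in fast fibres, read 5569, 382.5, 14520.4, 404.5, 865.4, 1705 and 516.4 in sedentary samples 1 to 7. In exercised samples 1 to 7 it read 804.5, 29649, 49688, 526.8, 8002, 49377 and 26125. Sedentary 3 exceeded exercised 5, exercised 3 and 6 were highest, and the difference was 2.71 (SE 1.13, limma adjusted p = 0.174), with an exact permutation p of 0.0548. The group means were 23450 ± 21150 exercised and 3423 ± 5229 sedentary (SD, n = 7 each), so the exercised SD was nearly as large as its mean.

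Casq1, the calcium-storing protein of the reticulum, read 1327, 910.4, 7337, 969.6, 954.1, 1429 and 909.2 in sedentary and 753.2, 13658, 23429, 948.4, 2377, 27979 and 8523 in exercised samples, in order. Exercised 1 was the lowest of all 14 arrays and sedentary 3 exceeded exercised 5, and the difference was 1.91 (SE 0.80, limma adjusted p = 0.176). Pvalb, the soluble calcium buffer of fast fibres, read 4084, 697.6, 19876, 803.9, 1004, 1579 and 871.4 in sedentary and 635.1, 29567, 50343, 779.4, 4598, 50134 and 22488 in exercised samples. Exercised 1 was again the lowest and exercised 3 and 6 the highest, and the difference was 2.25 (SE 1.07, limma adjusted p = 0.237). Sln, the sarcolipin that slows the SERCA pump, read 270.1, 213.9, 181.3, 47.6, 137.9, 60.1 and 45.7 in sedentary and 120.4, 322.1, 439.5, 84.5, 91.9, 177.1 and 116.7 in exercised samples. All its values but that of exercised 3 were under the filter level, its groups overlapped, and its difference without the filter was 0.38 (SE 0.36).

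Calcium cycling genes that other cells use as well were set beside these. Of 12 listed, 8 were tested and none was called, with a median difference of 0.15. At an unadjusted p under 0.05, 2 were higher, against 11.3% of all genes. Mcu, the mitochondrial calcium channel, had a difference of 0.32 (limma adjusted p = 0.0592), and S100a1 one of 0.41 (limma adjusted p = 0.108). Atp2a2, the SERCA2 pump of slow fibres, heart and non-muscle cells, had a signal of 10850 ± 977 exercised and 10410 ± 1061 sedentary (SD, n = 7 each). Over the 14 arrays the correlation with Ckm was -0.003 for Atp2a2, 0.61 for Mcu, 0.209 for S100a1 and 0.70 for the mean of the list.

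Energy supply genes keep the fibre in ATP and oxygen. Mb, myoglobin, the oxygen store of oxidative fibres, read 1372, 24, 524.3, 47.3, 63.4, 128 and 31.1 in sedentary samples 1 to 7. In exercised samples 1 to 7 it read 170.7, 767.9, 8890.0, 178.6, 1885, 21536 and 3600.5. Every exercised sample was above the sedentary median, but sedentary 1 exceeded exercised 1, 2 and 4, and the groups overlapped. The sedentary mean of Mb, 312.9, was below the filter, so Mb was tested only through its exercised arrays. The difference was 3.24 (SE 1.02, limma adjusted p = 0.078), with an exact permutation p of 0.0163 (0.127 after adjustment over all genes). Without exercised 4 it was 3.74 and was called (limma adjusted p = 0.0429), the single call among the members over the settings run, where its adjusted p ran from 0.0429 to 0.221. A second Mb probe set, under the filter, had a difference of -0.53 and r = -0.45 with the first. Eno3, the muscle enolase, had a difference of 2.18 (SE 0.85, limma adjusted p = 0.152), and Pgam2, the muscle phosphoglycerate mutase, 2.52 (SE 1.15, limma adjusted p = 0.215).

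To see whether the members rose and fell together, each was correlated with Ckm across arrays on the log2 scale. Of the 35 other members, 23 had r of at least 0.9 over the 14 arrays, up to 0.998 for Mylpf, against 0.386% of all 12944 genes compared. The count was 24 within the 7 exercised arrays and 17 within the 7 sedentary arrays. It was 21 without exercised 6 and 3, the arrays farthest from the median of Ckm, 19 by Spearman rank, and 19 with Acta1 in the place of Ckm. In a permutation test of each Pearson r over 14 arrays, adjusted over all 12944 genes, 27 of the 29 tested members passed with a positive r, all but Myh2 and Tnnc1, against 0.973% of all genes. Within a single group of 7 arrays none of the 29 passed after adjustment in the exact permutation test. All these correlations share the same 14 arrays and their common scale.

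Mylpf had r = 0.998 and rho = 0.991 (permutation p = 1e-05 for both, the smallest the resamples can give; adjusted 0.00209 and 0.00719). Its r was 0.997 without the 2 farthest arrays, 0.998 in the exercised and 0.997 in the sedentary samples. Acta1 had r = 0.988, 0.992 and 0.976 over all, exercised and sedentary arrays, Myh4 0.993, 0.996 and 0.989, and Atp2a1 0.993, 0.998 and 0.979. Their rho was 0.96, 0.982 and 0.982, their r without the 2 farthest arrays 0.986, 0.991 and 0.99, and their permutation p the same as for Mylpf. For these genes r was 0.976 or more inside each group taken alone.

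Myh1, Mb, Mybpc1 and Myh2 followed Ckm less closely. Myh1 had r = 0.894 (rho = 0.912, permutation p = 0.00023 and 2e-05, adjusted 0.0259 and 0.00996), with 0.92 in exercised and 0.751 in sedentary samples and 0.846 without the 2 farthest arrays. Mb had r = 0.881 (rho = 0.908, permutation p = 9e-05 and 4e-05, adjusted 0.0128 and 0.0162), with 0.852 and 0.843 in the groups and 0.848 without those arrays. Mybpc1 had r = 0.743 (rho = 0.859, permutation p = 0.00036 and 0.00014, adjusted 0.0376 and 0.0378), with 0.746 and 0.634 in the groups and 0.695 without those arrays. Myh2 had r = 0.686 (rho = 0.78, permutation p = 0.00134 and 0.00163, adjusted 0.106 and 0.162), with 0.792 in exercised and 0.025 in sedentary samples and 0.554 without those arrays.

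The other slow genes followed it weakly or not at all. Tnnc1 had r = 0.449 (rho = 0.508, permutation p = 0.106 and 0.0644, adjusted 0.826 and 0.647), with 0.455 in exercised and 0.03 in sedentary samples and 0.443 without the 2 farthest arrays. The untested members had r of -0.005 for Tnni1, 0.092 for Tnnt1, -0.227 for Myh7, 0.285 for Myl2, 0.363 for Myl3 and 0.641 for Sln, as descriptions of signals under the filter.

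**Figure D4:**
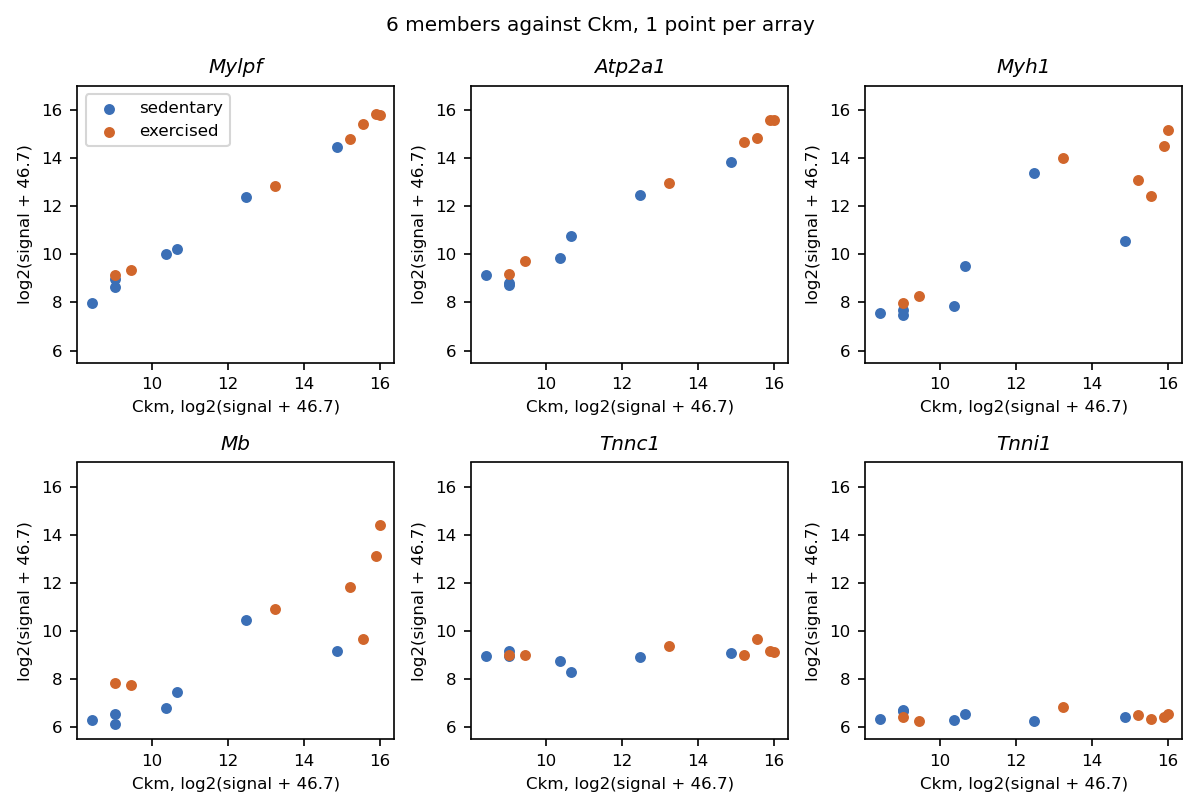
Log2 signal of Mylpf, Atp2a1, Myh1, Mb, Tnnc1 and Tnni1 against that of Ckm, 1 point per array, coloured by group. Mylpf (r = 0.998) and Atp2a1 (r = 0.993) lie on a line that exercised and sedentary samples share, Myh1 and Mb scatter around one, and Tnnc1 and Tnni1 show little slope.

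Fast and slow genes were then set against each other in each array. The 13 fast members, each centred on its mean over the arrays, averaged 0.45, -3.0, 2.13, -3.02, -2.0, -1.17 and -2.96 on the log2 scale in sedentary samples 1 to 7. In exercised samples 1 to 7 they averaged -2.42, 3.04, 3.82, -2.71, 1.04, 4.05 and 2.77. The 7 slow members stayed between -0.31 and 0.06 in sedentary and between -0.37 and 0.94 in exercised samples, with the highest value in exercised 6. Group means of the fast genes were 1.37 ± 2.86 exercised and -1.37 ± 2.0 sedentary, and those of the slow genes 0.109 ± 0.452 and -0.107 ± 0.13 (SD, n = 7 each).

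The fast minus slow value was 1.26 ± 2.54 exercised and -1.26 ± 2.04 sedentary, a difference of 2.52 that is close to the spread within each group. It ranged from -2.41 to 3.45 in exercised and from -3.06 to 2.32 in sedentary samples, so the groups overlapped. Of the slow members only Tnnc1 and Mybpc1 passed the filter, and with these alone the difference was 2.05. With Mybpc1 alone as the slow member, a choice made after its values were seen, it was 1.68. With the fast and slow paralogue pairs alone it was 2.90.

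**Figure D5:**
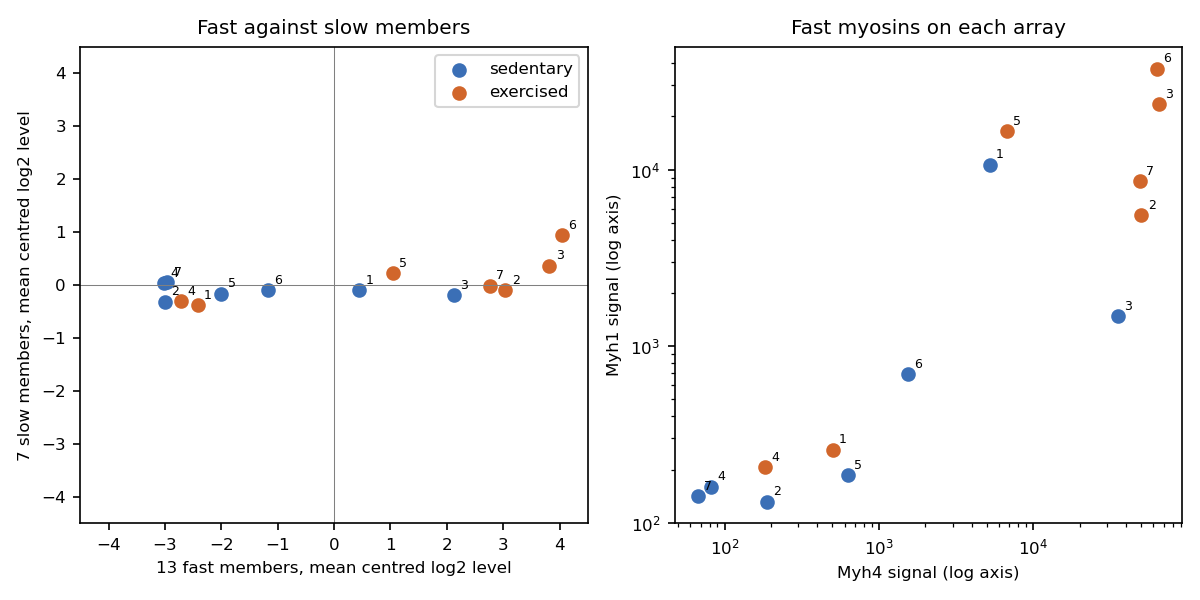
The left panel plots the mean centred log2 signal of the 13 fast members against that of the 7 slow members, and the right panel the Myh1 signal against the Myh4 signal on log axes, 1 point per array in both. Fast genes span from -3.02 to 4.05 while slow genes span from -0.37 to 0.94, and in the right panel sedentary 3 and exercised 2 lie far to the Myh4 side.

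Among the 7 arrays with high signals the balance of fast fibre genes was not the same, as gene pairs chosen after their values were seen show. The log2 ratio of Myh1 to Myh4 signal was -4.53 in sedentary 3, -3.17 in exercised 2 and -2.51 in exercised 7. It was -1.47 in exercised 3 and -0.76 in exercised 6, and 1.02 in sedentary 1 and 1.28 in exercised 5. The ratio of 2 probe sets gives no share of fibres, but its change from array to array is a change in the balance of the 2 signals.

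Mb against Ckm gave a similar order. The log2 ratio was -5.71 in sedentary 3 and -5.89 in exercised 2, -3.37 in exercised 7, -2.76 in exercised 3, -2.32 in exercised 5, -2.02 in sedentary 1 and -1.59 in exercised 6. Mybpc1 against Mybpc2 was lowest in the same 2 arrays, at -3.86 in sedentary 3 and -5.1 in exercised 2, and ran up to -0.14 in sedentary 1. So a sedentary and an exercised array shared the lowest ratios of Myh1 to Myh4, Mb to Ckm and Mybpc1 to Mybpc2. Sedentary 1 was beside exercised 5 at the other end for Myh1 against Myh4.

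Other genes of the muscle fibre moved with these arrays. Of 58 further muscle genes, 55 were on the array and 47 were tested. None was called, before adjustment 24 were under 0.05 as higher, against 11.3% of all genes, and 1 as lower, and the median difference was 1.20. Tpm2, the beta-tropomyosin, had 3.04 (SE 1.31, limma adjusted p = 0.19; 1.63 as the mean of its probe sets), Pygm, the muscle glycogen phosphorylase, 2.57, Ampd1, the muscle AMP deaminase, 2.48 and Trim54, a sarcomeric ubiquitin ligase, 2.31 (limma adjusted p = 0.11). Correlations of genes outside the set are given as descriptions, with no test. Of these genes, 27 had r of at least 0.9 with Ckm, and 16 of these are on the list of further muscle genes. The closest were Tpm2 (r = 0.987), the sarcomeric mitochondrial creatine kinase Ckmt2 (0.972), Pygm (0.971), Myoz1 (0.97) and Klhl41 (0.967), with Rpl3l (0.964) the first that is not on a list used here.

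Genes that muscle shares with brown fat included called ones. Of 10 tested, 7 rose with exercise by limma (4.0% of all genes were called higher), and the median difference was 1.76. The mean of the list had r = 0.77 with Ckm, and 2 of the 10 genes had r of at least 0.9. Fabp3, a fatty acid carrier, rose by 4.08 (SE 0.48, limma adjusted p = 0.000744), or by 2.19 as the mean of its probe sets (limma adjusted p = 0.00155), and its r with Ckm was 0.528. Slc25a20, the carnitine carrier, rose by 1.25 (limma adjusted p = 0.00143) and Pdk4, a kinase that shuts off pyruvate oxidation, by 1.99 (limma adjusted p = 0.00171). Ckmt2 and Cox6a2, the muscle isoform of a cytochrome oxidase subunit, tracked Ckm (r = 0.972 and 0.938), and neither passed, at 3.29 (limma adjusted p = 0.151) and 1.53 (limma adjusted p = 0.255).

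Markers of brown and beige fat had r = 0.48 between the mean of their list and Ckm over all 14 arrays. Both were higher on average in the exercised group, so this r includes the group difference, and no r within a group is given. Among exercised samples the mean log2 signal of the list was lowest in exercised 2 (11.44) and 6 (11.93), both high in muscle genes. It was 12.43 in exercised 1, low in muscle genes, and highest in exercised 7 (12.65), high in them. Of 6 tested markers, 3 rose by limma, where 4.0% of all genes were called higher. These were Ppara (1.76), Elovl3 (2.32) and the uncoupling protein Ucp1 (4.67, SE 0.69, limma adjusted p = 0.00229). Ucp1 had r = 0.492 with Ckm over the same 14 arrays. In sedentary samples 1 to 7 its signal was 9989, 924.7, 993.3, 1108, 1692, 1888 and 67.3, and in exercised samples 1 to 7 it was 46582, 10273, 33612, 33496, 42050, 26461 and 51867. Sedentary 1, second in muscle genes among the sedentary arrays, was the highest of them in Ucp1, and exercised 7 was high in both. Exercised 2 and 6, also high in muscle genes, had the lowest exercised Ucp1 signals, at 10273 and 26461. Exercised 3, high in muscle genes too, had 33612, beside 33496 in exercised 4. Exercised 1 and 4 were high in Ucp1 and among the lowest in muscle genes, and sedentary 3, the highest sedentary array in muscle genes, was not high in Ucp1. Of 8 tested mature adipocyte markers 1 was called, where 5.53% of all genes were called in either direction. It was the insulin-responsive glucose transporter Slc2a4 at 0.77 (limma adjusted p = 0.0468), a call lost under several settings. The mean log2 signal of that list lay between 14.65 and 15.15 in exercised and between 13.85 and 15.1 in sedentary samples, and Adipoq had r = 0.085 with Ckm.

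Markers of muscle precursors, of heart and of young fibres were mostly under the filter, and the means of their lists followed Ckm with r of 0.85, 0.65 and 0.81. Of 8 myogenic progenitor genes 3 were tested and none was called. All 3 were higher at an unadjusted p under 0.05, against 11.3% of all genes, with the smallest p for Des (1.09, limma adjusted p = 0.152) and Myod1 (0.41, limma adjusted p = 0.179). Des, a filament protein of mature muscle too, reached 13712 in exercised 6 and 13347 in exercised 3. The defining marker Pax7 lay between 139.3 and 438.9 on all arrays and Myf5 between 2.9 and 132.1, and Myf6, a factor of mature fibres, had r = 0.925. Of 9 cardiac genes 3 were tested and none was called. Actc1, the cardiac actin also made in skeletal muscle, had 1.32 (limma adjusted p = 0.216) and reached 7326 in exercised 2 and 7127 in exercised 6, Myl4 had -0.37 (limma adjusted p = 0.168), and the heart markers Myh6 and Tnni3 stayed between 13.6 and 135.4 and between 25.1 and 324.7. Of 5 genes of developing fibres 2 were tested and none was called, Myl4 and Ncam1 (-0.22). Unlike the mean of their list, these 2 did not follow Ckm, with r of 0.036 for Myl4 and -0.424 for Ncam1. The embryonic and perinatal myosins Myh3 and Myh8, both not tested, reached at most 135.1 and 539.8. The Myh8 maximum was in exercised 6, followed by exercised 7 and 2.

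Other tissues that lie near the depot were screened by the same fit. Of 6 tested smooth muscle genes none was called, with the smallest p for Smtn (0.31) and Synpo2 (0.98, and 0.08 as the mean of its probe sets). Their r with Ckm was 0.686 for Smtn and 0.841 for Synpo2, which read 9461 in exercised 6 and 7102 in exercised 3. For the smooth muscle actin Acta2 r was -0.181, and for the mean of the list 0.17. Of 6 skin keratinocyte genes none was called, with the smallest p for Krt14 (0.39) and Krt5 (0.90). Their mean log2 signal was 12.2 in exercised 1, a sample low in muscle genes, 10.45 in exercised 6, the sample highest in muscle genes, and between 8.46 and 9.13 in sedentary samples, and its r with Ckm was -0.04. Of 3 Schwann cell genes none was called (Mbp 0.73, Pmp22 0.16), of 7 lymphocyte genes none (Cd2 -0.65, Ltb -1.05) and of 3 tendon and fascia genes none (Fmod -0.88, Scx 0.18). Over these 5 lists, before adjustment 2 genes were under 0.05 as higher, against 11.3% of all genes, and 1 as lower.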

How the data were processed

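Total RNA from frozen tissue was labelled with biotin for Affymetrix arrays, per the labels' protocols. Each deposited value is a probe set's intensity on a linear scale. The authors used MAS5, per the submitters' processing notes, with no version or settings stated in the labels used here. On every array the mean without the top and bottom 2% was 1500, so a change in total RNA per cell cannot be seen. Of 45101 probe sets, 64 were controls, 34945 had 1 symbol in the platform annotation, 932 had several and 9160 had none; those with several or none were left out. Entrez identifiers matched 34741 to GRCm38.p6 symbols.

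Groups and replicate numbers came from the labels. The analysis used log2(signal + 46.7), with the 10th percentile of the signals as the added constant, which understates differences of low genes. Genes were tested if their mean signal was at least 389.7, the 40th percentile. limma 3.58.1 in R 4.3.3 (lmFit, eBayes with a trend) was run two-sided. Its p-values were adjusted by Benjamini-Hochberg across every tested gene, and calls were made at 0.05. The exact permutation test of the mean difference was two-sided over all 3432 assignments of arrays, with a smallest p of 0.000583. Correlations used 100000 resamples over 14 arrays and all orders over 7, where the smallest p is 0.000198, and were adjusted over all genes, not over the members as first planned. The code was tested on simulated data. Precision for the members is limited by the number of arrays, 14, and by their spread within groups. The median pooled SD was 2.32 for tested members, against 0.241 for all genes tested.

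Members, lists, the fast and slow split and the rule for named genes were chosen with earlier results of these data known. Named by rule were all members, with every array's value for 14 of them, the 4 further muscle genes with the largest difference, and of each other list up to 3 called genes or the 2 with the smallest p; the other genes named were chosen after their values were seen. Alternatives covered normalization, pseudocount, filter, probe sets, variance model, array weights, RNA integrity, the replicate number, the test and each array left out.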

Additional observations from a re-analysis of the deposited data

Results flagged for a closer look

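Values that stood apart from the other 6 samples of their group were sought with Dixon's test over 74 sets of member or summary values, of which 5 passed its 95% critical value; chance alone passes about 1 in 20. Sedentary 3, the sedentary array with the highest muscle signals, had a Trdn signal of 1941, where the other 6 sedentary samples lay between 22.4 and 81.8, and a Casq1 signal of 7337, where the others lay between 909.2 and 1429. Sedentary 1 had a signal of 932.2 for the slow gene Mybpc1, against 360.3 to 510.6 in the others. Exercised 6 had 795.8 for the slow light chain Myl2, against 286.4 to 424.2. Sedentary 7, which also had the highest sedentary signal of Myl2 (432.9), had 159.2 for the slow troponin Tnnt1, against 21.6 to 54.9.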

How the results depend on the processing

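Signals below the filter limit what can be said of the slow genes, of which 5 of 7 were not tested. The count of called members was 0 in 27 alternatives and ranged from 0 to 1 when each array was left out, with Mb called without exercised 4. The count at an unadjusted p under 0.05, 21 in the fit reported, ranged from 4 to 28 when each array was left out, lowest without exercised 6. It was 2 with array weights, 2 with the Gapdh 3′/5′ ratio as a covariate and 8 by the exact permutation test. The cause was not tested. With the replicate number as a block 0 members were called and 25 were higher at an unadjusted p; same-numbered samples deviated together with r from -0.425 to 0.381, and 1 of 7 samples correlated best with its own number, so the numbers show no pairing. The median member difference stayed between 1.96 and 3.25, the fast minus slow difference between 1.68 and 3.13, and the count of members with r of at least 0.9 with Ckm between 17 and 25. Pmp22 reversed to -0.001 with array weights. Slc2a4 lost its call under 15 alternatives. Mcu was called with the stricter filter and without exercised 4, and S100a1 with array weights and by the exact permutation test. Among other values that moved by over 1.5 times outside the left-out arrays, Acta1 was 1.37 with array weights, Mybpc1, Myh2 and Tcap were 0.62, 0.50 and 1.01 with the Gapdh covariate, and Des was 0.53 as the mean of its probe sets.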
